A study of Mus musculus with 2 samples.

Results

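The most proliferative cells of the collagen cultures were the 112 cells, of 336 collagen cells and 2090 cells in all, with the highest proliferation score. The score of a cell was the sum of the CPM (counts per 1000000 counts of that cell) of 14 cell cycle genes. Of these, 5 act in S phase (Mcm5, Pcna, Rrm2, Uhrf1 and Clspn) and 9 act in G2 or mitosis (Mki67, Top2a, Ccnb1, Cenpa, Cdc20, Ube2c, Birc5, Tpx2 and Cenpf). The 112 cells with the highest sums are called high-score collagen cells below, the next 112 middle cells and the last 112 low-score collagen cells. The same score split the 1599 Matrigel cells that passed a filter on quality, and their 533 highest cells are called high-score Matrigel cells.

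All cells came from organoids, clusters of epithelium grown from crypts of the proximal small intestine of C57BL/6 wild-type mice, on day 4 of culture. Collagen cultures were embedded in type I collagen under medium with EGF at 50 ng/mL, Noggin at 100 ng/mL, R-spondin1 at 400 ng/mL, Wnt3a at 100 ng/mL, 1% bovine serum albumin and 10 mM nicotinamide. Matrigel cultures were embedded in a basement membrane extract under medium with the same amounts of EGF, Noggin and R-spondin1 and without the other additions. Collagenase at 0.5 mg/mL released the collagen cultures and a non-enzymatic solution the Matrigel cultures, before both were dissociated with TrypLE, so matrix, medium and release cannot be told apart. Each culture was 1 suspension, tagged by a hashtag on an EpCAM antibody and sequenced as single cells in 1 pooled cDNA library, and the labels do not give the number of mice. The cells of 1 suspension are not replicates, so differences are described and not tested.

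A dividing cell copies its DNA in S phase, when the MCM helicase, polymerases and nucleotide synthesis enzymes are made. It then passes through G2 and divides in mitosis, driven by cyclin B with CDK1, and much of the mitotic machinery is transcribed only late in the cycle. In the healthy intestine most divisions take place in the crypt, in LGR5 stem cells and their early progeny, whereas injured epithelium passes through a state with fetal genes such as Ly6a, Clu and Anxa1.

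The score chose the cells, so its values describe them and support nothing. It ran from 581 CPM in the last cell taken in to 4350 CPM, with a median of 1160 CPM. Middle cells had a median of 320 CPM and low-score cells one of 87.1 CPM, and 5 low-score cells had no count of any of the 14 genes. No gap marked the boundary. The last 3 cells taken in stood at 591, 587 and 581 CPM, and the first 3 left out at 578, 570 and 560 CPM. Within 10% of the boundary lay 7 high-score cells above it and 8 middle cells below. In Matrigel the median of the high-score cells was 1500 CPM (1120 to 3434), and 1050 of 1599 Matrigel cells, or 65.7% (63.3 to 68.0), reached the collagen boundary of 581 CPM. Ranges in brackets after a median run from the lowest to the highest cell. After a share, or a level from the summed counts of a group, they are exact 95% binomial or Poisson intervals. These intervals cover counting error only, and PCR copies among the counts would make them too narrow.

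High-score collagen cells were slightly deeper than the others. Their median was 142460 counts per cell (31525 to 708341), against 124655 in middle and 113481 in low-score cells. High-score Matrigel cells were deeper still, at a median of 205304 counts. The mitochondrial share had a median of 3.50% in high-score and 3.26% in low-score collagen cells. The cells carried the collagen hashtag at a median of 99.3% of both hashtags, but 8 high-score cells lay below 95%, and 1 of them at 43.7%. Epcam, the epithelial adhesion gene through which cells were tagged, had a count in 112 of 112 high-score cells. No 2 cells shared a barcode.

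Of the 4 genes that mark these cells, Mki67, Top2a and Cenpf are in the score, so their values describe the choice and do not check the label, and only Hmmr lies outside it. Mki67, whose protein coats mitotic chromosomes and is lost in resting cells, stood at 156 CPM (150 to 162) in high-score cells, at 21.2 CPM in middle cells and at 3.00 CPM (2.12 to 4.12) in low-score cells. Per cell it ranged from 0 to 1777 CPM with a median of 126 CPM, and 103 of 112 high-score cells had a count of it, against 13 of 112 low-score cells. Top2a, the topoisomerase that untangles replicated chromosomes, stood at 84.1, 5.45 and 1.93 CPM in the same order and had a count in 82 high-score cells. Cenpf, a kinetochore protein gene of late G2, stood at 98.5, 25.2 and 2.17 CPM, also with a count in 82 high-score cells. Hmmr, which encodes a spindle protein, stood at 85.9 CPM (81.4 to 90.6), 5.38 CPM and 0.658 CPM (0.273 to 1.24), with counts in 72, 12 and 6 cells. The median high-score cell had a count of 8 of the 9 G2/M genes of the score but of only 3 of its 5 S genes.

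The promoters of these marker genes carry sequence elements known from late cell cycle genes. The cell cycle homology region (CHR), searched as TTTGAA and in the variant form TTCGAA, and the CCAAT box are known binding elements of the DREAM and MuvB complexes and of the factor NF-Y. E2F factors, which act at the start of S phase, bind sites that were searched as TTCCCGC. Of variant forms, the letters TTGGCGC were searched as well. The remaining forms were TTCGCGC with a central CG step, and, with GCC in the middle, the letters TTGCCGC. The 150 bases before the start site of the 4 marker genes are shown as RefSeq gives them, in build GRCm38.p6, while the expression files use GRCm39. Each is written 5′ to 3′ on the strand of the gene, and capitals mark CHR and CCAAT matches on either strand.
Mki67, chr7:135716380-135716529 on the minus strand: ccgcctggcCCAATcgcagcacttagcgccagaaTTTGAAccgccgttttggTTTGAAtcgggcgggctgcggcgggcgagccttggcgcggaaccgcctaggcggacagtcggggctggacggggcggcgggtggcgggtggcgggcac
Top2a, chr11:99024190-99024339 on the minus strand: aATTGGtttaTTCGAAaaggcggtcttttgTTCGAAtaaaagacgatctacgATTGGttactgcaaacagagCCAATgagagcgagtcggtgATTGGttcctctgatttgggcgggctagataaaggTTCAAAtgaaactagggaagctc
Cenpf, chr1:189688087-189688236 on the minus strand: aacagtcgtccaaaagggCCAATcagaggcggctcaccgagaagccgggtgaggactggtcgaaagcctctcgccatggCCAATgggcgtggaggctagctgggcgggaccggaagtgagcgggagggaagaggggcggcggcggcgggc
Hmmr, chr11:40733438-40733587 on the minus strand: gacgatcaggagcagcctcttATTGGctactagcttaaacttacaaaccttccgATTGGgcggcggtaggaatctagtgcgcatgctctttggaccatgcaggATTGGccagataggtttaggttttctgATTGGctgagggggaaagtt
The windows of Mki67 and Top2a hold both elements, and those of Cenpf and Hmmr hold CCAAT matches and no CHR match. Hells, a chromatin remodeller gene, and Uhrf1, which carries DNA methylation through replication, are shown for the S phase side, with capitals at E2F matches. Uhrf1 has a second start site in the table, whose window has no E2F match.
Hells, chr19:38930840-38930989 on the plus strand: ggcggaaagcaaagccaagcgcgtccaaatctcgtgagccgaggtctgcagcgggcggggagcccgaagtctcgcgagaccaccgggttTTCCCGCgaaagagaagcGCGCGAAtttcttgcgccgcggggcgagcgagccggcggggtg
Uhrf1, chr17:56303187-56303336 on the plus strand: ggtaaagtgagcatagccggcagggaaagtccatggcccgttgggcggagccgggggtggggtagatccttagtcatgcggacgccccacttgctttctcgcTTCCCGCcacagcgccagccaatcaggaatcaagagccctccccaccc
Over the 250 bases before the start site, on both strands, a CHR was found in 43.4% of the 53 windows of G2/M genes (48 of 55 genes matched), in 17.6% of the 34 windows of S genes (31 of 43 genes matched) and in 17.1% of all 32851 windows. An E2F site was found in 20.8% of G2/M windows, 52.9% of S windows and 7.89% of all windows. A CCAAT box was found in 75.5%, 67.6% and 33.8%, and a CHR together with a CCAAT box in 37.7%, 11.8% and 6.02%. A match is a description of letters and does not show that a factor bound.

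S genes made up a smaller part of the score in collagen than in Matrigel. Their median part was 16.2% in high-score collagen cells and 64.9% in high-score Matrigel cells. They supplied more than the G2/M genes in 21 of 112 high-score collagen cells and in 335 of 533 high-score Matrigel cells. In CPM, the S part had a median of 198 against 1044, while the G2/M part had one of 753 against 616. Pcna, the sliding clamp of DNA polymerase, bore much of the S part, and 87.7% of its values above 0 were fractional, which happens where reads match more than 1 copy of a gene. Without Pcna in the score, the median S share was 4.47% in collagen and 30.8% in Matrigel. With the score taken as a mean of logarithms it was 16.4% and 48.6%. So collagen lay on the G2/M side under each of these scores, while Matrigel lay on the S side with the summed score of all 14 genes and on the G2/M side with both of these changes.

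**Figure D1:**
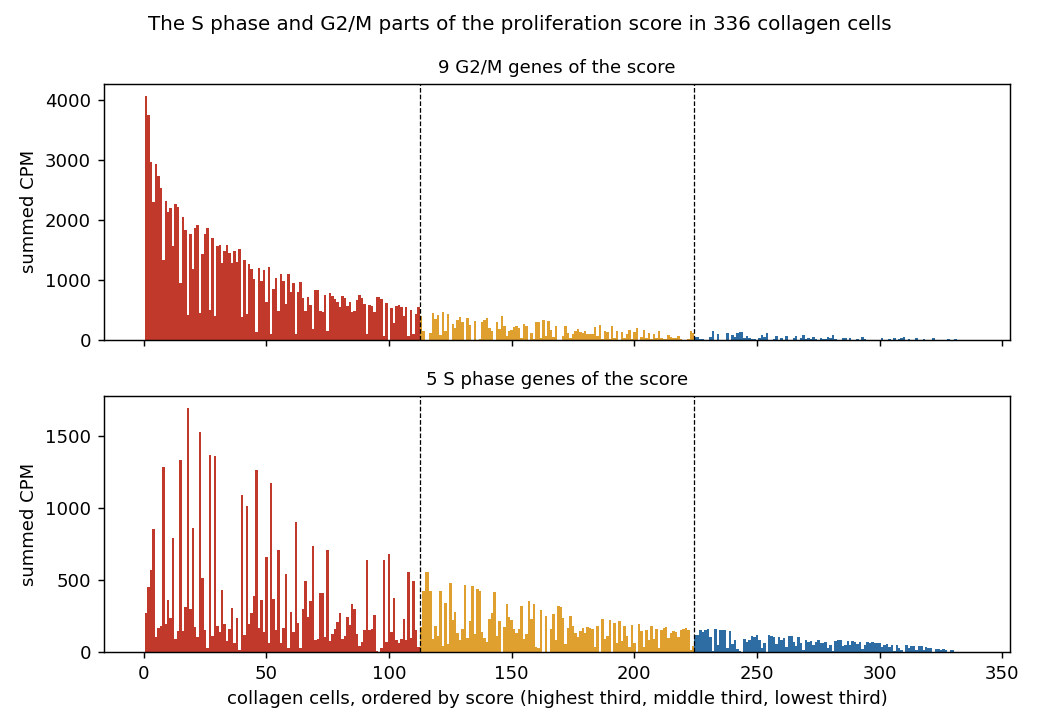
Summed CPM of the 9 G2/M genes (top) and the 5 S phase genes (bottom) of the score in each of the 336 collagen cells, ordered by score from the highest, with colours for the high-score, middle and low-score cells and dashed lines at their boundaries. The vertical scales differ; among the high-score cells the top panel reaches 4077 CPM and the bottom one 1696 CPM, and the cells with tall bars in the bottom panel are scattered along the order.

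Genes outside the score gave the same order of the collagen groups and, for S phase genes, the same order of the cultures. Because these lists hold none of the 14 genes, they were not used to choose the cells, though they were measured in the same cells. The sum of 38 S phase genes had a median of 784 CPM in high-score collagen cells (94.3 to 4926), 270 CPM in middle and 226 CPM in low-score cells. It was 3238 CPM (556 to 5350) in high-score Matrigel cells, so the collagen and Matrigel ranges overlapped while the medians lay far apart. The sum of 46 G2/M genes had a median of 3673 CPM (461 to 13466) in high-score collagen cells, 1117 CPM in middle and 928 CPM in low-score cells. It was 3935 CPM (1060 to 9970) in high-score Matrigel cells, close to the collagen median but above it. The G2/M part of the score had its higher median in collagen.

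Boundaries drawn from the collagen cells put most high-score cells in both phases at once. A cell was called S-high or G2/M-high when its sum was among the highest 112 of the 336 collagen cells, which means 530 CPM for S and 1914 CPM for G2/M. By these, 78 of the 112 high-score cells were high in both, or 69.6% (60.2 to 78.0), 20 in G2/M only, 4 in S only and 10 in neither. Among the middle cells, 19 were high in S only, 9 in G2/M only and 5 in both, and among the low-score cells 6 were high in S only and none in G2/M. Because S sums were low in collagen, the S boundary was a low one. Set where the highest 533 of 1599 Matrigel cells begin, at 2567 and 3325 CPM, the boundaries left 16 of 112 high-score collagen cells high in S, or 14.3% (8.39 to 22.2), 66 high in G2/M, or 58.9% (49.2 to 68.1), and 10 high in both. Of the 533 high-score Matrigel cells, 353 reached the S boundary, or 66.2% (62.0 to 70.2), 362 the G2/M boundary, or 67.9% (63.8 to 71.9), and 200 both. The intervals of the 2 cultures overlapped for G2/M and lay apart for S.

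Across high-score collagen cells the S and G2/M sums ran together, with a Spearman rho of 0.40 over 112 cells, while across high-score Matrigel cells they ran opposite, with a rho of -0.38 over 533 cells. With every cell thinned to 77972 counts and shallower ones dropped, 95 and 511 cells were left and rho was 0.37 and -0.38. Over all 336 collagen cells rho was 0.71 and over all 1599 Matrigel cells 0.41. The cells of a culture share a suspension, and both sums are scaled by the same total per cell. High-score cells were also chosen on a sum of S and G2/M genes, a choice that bears on rho among them. In both cultures rho was lower among the chosen cells than over all cells, and the part of the choice was not tested.

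**Figure D2:**
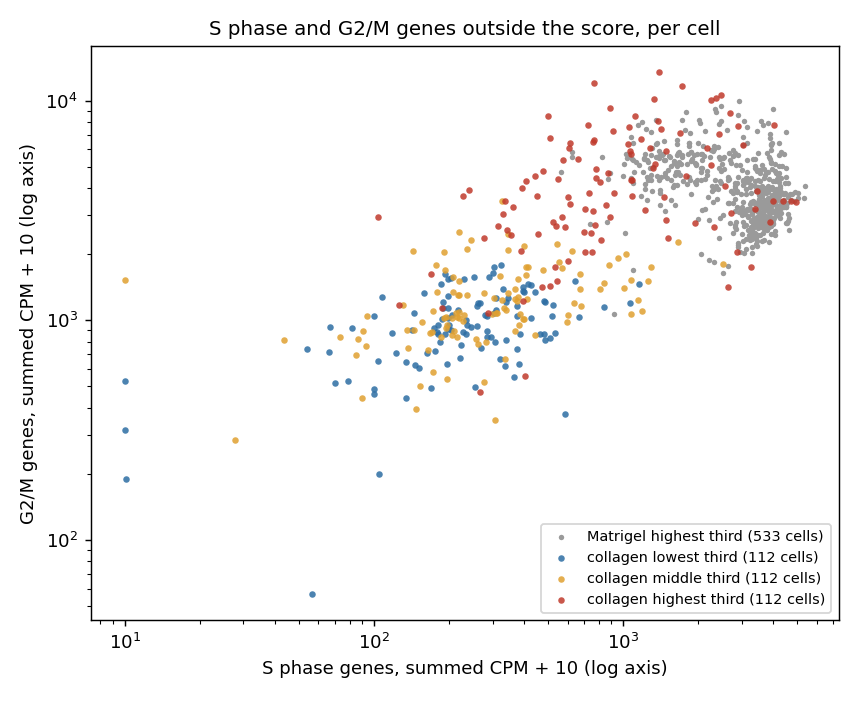
Each point is a cell, placed by its summed CPM of 38 S phase genes (horizontal) and 46 G2/M genes (vertical) outside the score, on log axes with 10 CPM added, coloured by culture and score group. The high-score Matrigel cells lie along a band that falls to the right at S sums around 3238 CPM, while the high-score collagen cells rise from lower left to upper right and mostly lie to the left of that band, around 784 CPM.

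The 21 high-score cells with more S than G2/M signal differed in their medians of genes outside the score, with ranges that overlapped. Their 38 S phase genes summed to a median of 2703 CPM (178 to 4926), against 747 CPM (94.3 to 4045) in the 91 high-score cells with more G2/M signal. Their 46 G2/M genes summed to 2797 CPM (461 to 6273) against 4288 CPM (1164 to 13466). Cyclin E, which starts replication with CDK2, stood higher in the summed counts of the 21 cells. Ccne1 was at 30.6 against 2.04 CPM and Ccne2 at 38.4 against 4.73 CPM. Cdc6, which loads the MCM helicase, stood at 23.9 against 3.59 CPM. Deep cells weigh more in these levels, and the deepest of the 21 cells had 708341 counts against a median of 142848. The nucleolar and ribosome biogenesis genes summed to a median of 6296 CPM against 3981 CPM. The fetal and regenerative genes did not divide the same way, with medians of 6232 and 6552 CPM. The low hashtag cell at 43.7% was among the 21 cells, of which 2 lay below 95%. These comparisons follow from a split on the score and are descriptions.

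Across all genes, 10475 reached 5 CPM in high-score or low-score collagen cells. In high-score cells 8.74% of them were higher by 2-fold or more and 3.38% lower by 2-fold or more, on the scale of CPM with 1 CPM added, and the median log2 ratio was 0.13. The same split of the Matrigel cells left 3.47% of 10398 genes higher and 2.44% lower by that measure. The cells were chosen by cell cycle genes, so the counts below show which parts of the cycle came along and not that they differ beyond chance.

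Replication genes came first in the cycle. Of 20 measured origin licensing genes 17 were higher by at least 2-fold and the median log2 ratio was 1.96, among them the helicase subunit genes Mcm3 (52.0 against 6.31 CPM) and Mcm6 (50.5 against 9.15 CPM) and the helicase cofactor Cdc45 (20.1 against 0.316 CPM). Of 23 replication fork genes 22 were higher (median 2.21), such as the flap nuclease Fen1, at 31.9 against 0.631 CPM. Nucleotide supply had 12 of 14 (median 1.56), with thymidine kinase Tk1 at 60.8 against 5.44 CPM. Chromatin assembly had 8 of 8 (median 2.71), led by Hells at 76.0 against 1.97 CPM. Homologous recombination had 16 of 16 (median 2.52).

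Mitotic lists came along too. The list of mitotic kinases and the spindle checkpoint had 14 of 15 genes higher by at least 2-fold (median 3.97), among them the kinase Nek2 (42.0 against 0.395 CPM) and the checkpoint gene Mad2l1 (87.9 against 3.67 CPM). Spindle and kinesin genes had 21 of 23 (median 3.68), with the spindle protein gene Tacc3 at 54.5 against 1.03 CPM. Centromere and kinetochore genes had 24 of 25 (median 3.16), led by the motor gene Cenpe at 101 against 3.04 CPM. Cytokinesis genes had 14 of 14 (median 2.76), with Cep55, a gene of the last step of cell separation, at 27.0 against 0.197 CPM. The list of cyclins A and B with CDK1 had 11 of 13 (median 2.30), with Ccnb2 at 181 against 8.01 CPM and Cdk1 at 64.4 against 2.44 CPM. Condensation and cohesion genes had 16 of 17 (median 2.67), and among them Smc2 of condensin stood at 109 against 3.16 CPM.

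Further lists came along in smaller part, though above the 8.74% of genes higher and the median of 0.13 over all genes. In the list of the anaphase-promoting complex and mitotic exit, 5 of 17 genes were at least 2-fold higher and 0 lower (median 0.78). Its inhibitor Fbxo5 (13.0 against 1.30 CPM) and the core subunit Anapc4 (31.8 against 14.1 CPM) were among them. In the list of G1 cyclins and G1/S regulators 6 of 17 were higher and 0 lower (median 0.52). Cyclin D1, which links growth signals to the cycle, hardly differed, with Ccnd1 at 236 against 272 CPM, and Myc stood lower at 25.8 against 39.3 CPM. Ribosome biogenesis had 8 of 30 (median 0.82, all 30 above 0), with Nop56 of the small nucleolar particles at 155 against 60.3 CPM.

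Among genes outside the score that reached 50 CPM and 100 counts, the 12 with the largest ratio were looked at, and 11 of them were cell cycle genes: Hmmr, Ccna2, Cdca8, Pclaf, Tacc3, Smc2, Hells, Cenpe, Cdkn3, Ccnb2 and Mad2l1. Their log2 ratios ran from 4.25 for Mad2l1 to 5.71 for Hmmr. Olfm4, a crypt stem cell marker, was the other one, but its 50.2 CPM rested on 2 of 112 high-score cells, and 1 of these was the cell with 43.7% of its own hashtag.

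**Figure D3:**
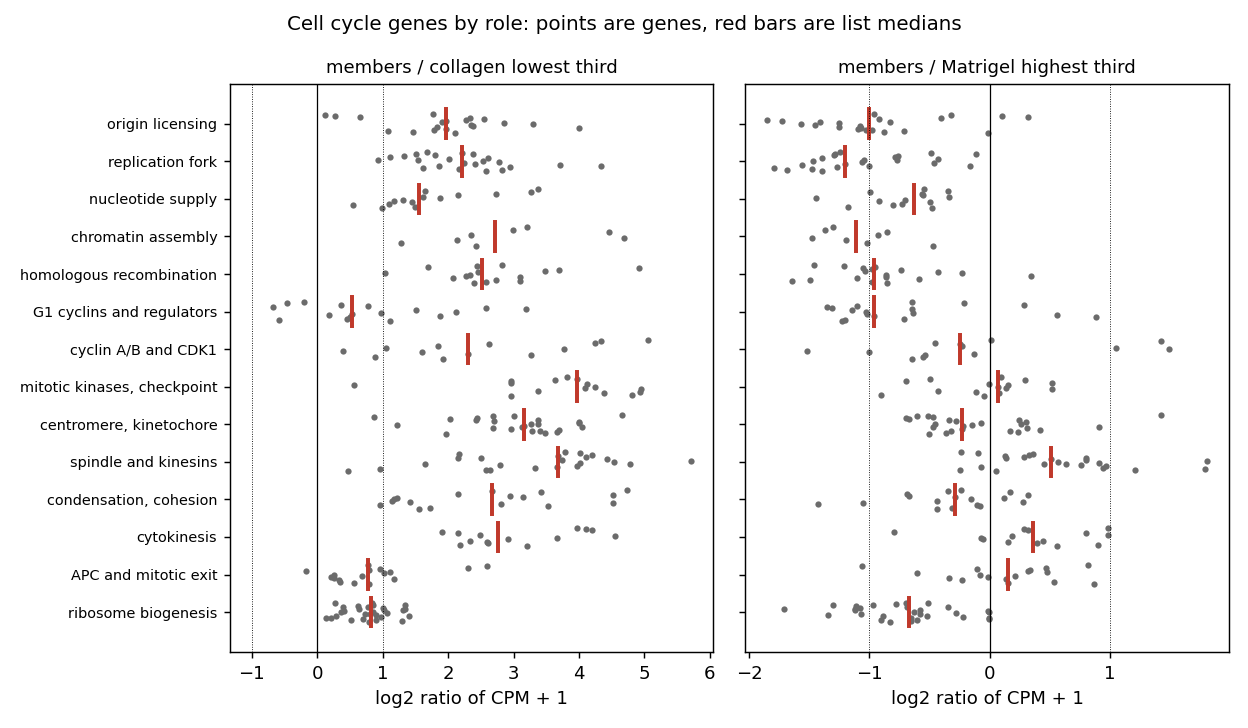
Log2 ratio of CPM + 1 for each gene (grey points) of 14 role lists, with the list median as a red bar, for high-score against low-score collagen cells (left) and for high-score collagen against high-score Matrigel cells (right), with dotted lines at a ratio of 2-fold. On the left nearly every replication and mitotic gene lies above 0, with mitotic kinases at a median of 3.97; on the right the replication fork and origin licensing lists have medians of -1.20 and -1.003, while mitotic kinases lie at 0.07 and condensation at -0.29.

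Set against the high-score cells of Matrigel, the high-score collagen cells had lower S phase genes and like or higher G2/M genes. Of 10600 genes reaching 5 CPM in either group, 7.79% were higher and 6.61% lower by 2-fold or more in collagen, and the median log2 ratio was 0.07. Of the 38 S phase genes outside the score 21 were at least 2-fold lower and 0 higher, with a median of -1.02 and every gene below 0. Of the 46 G2/M genes 0 were lower and 6 higher, with a median of 0.15. Cdca7, a chromatin protein gene under E2F and MYC, stood at 37.3 CPM (34.4 to 40.5) in collagen against 226 CPM (223 to 229) in Matrigel. Ung, which removes uracil from DNA, stood at 14.3 against 76.6 CPM, the methylation reader Uhrf1 at 22.0 against 102 CPM and Mcm5 at 64.0 against 224 CPM. In the other direction Hmmr stood at 85.9 against 23.9 CPM (log2 ratio 1.80) and Cenpf at 98.5 against 29.7 CPM (1.70). Ccnb2 stood at 181 against 66.8 CPM and Cenpe at 101 against 36.8 CPM. Mki67, at 156 against 84.0 CPM, lay within 2-fold of Matrigel.

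Role lists of replication and of mitosis differed in their medians. Origin licensing had 11 of 22 genes at least 2-fold lower (median -1.003) and the replication fork 15 of 23 (-1.20). Chromatin assembly had 5 of 8 lower (-1.11) and homologous recombination 7 of 18 (-0.96), and in each of these 4 lists 0 genes were higher. Nucleotide supply had only 2 of 14 lower (-0.63). Among licensing genes Cdc6 stood at 8.07 against 31.6 CPM and its partner Cdt1 at 20.3 against 69.6 CPM. The checkpoint kinase Chek1, which guards stalled forks, stood at 12.01 against 39.6 CPM. Mitotic kinases had 0 genes past 2-fold in either direction of 15 (median 0.07), with Bub1 at 21.5 against 14.7 CPM, and cytokinesis had 0 of 14 (0.36). Spindle genes had 3 of 23 higher (0.51), which were Hmmr, Psrc1 and Gtse1. Further mitotic lists had medians below 0. The kinetochore list had 1 of 25 higher and 0 lower (-0.23), condensation and cohesion had 2 of 17 lower and 0 higher (-0.29), and cyclins A and B with CDK1 had 3 of 13 higher and 2 lower (-0.25). Wee1, the kinase that holds CDK1 back, stood lower at 7.12 against 22.2 CPM, and Cdc25c, the phosphatase that releases it, higher at 14.3 against 4.43 CPM. Ribosome biogenesis had 8 of 30 lower (-0.67), with the nucleolar gene Gnl3 at 57.3 against 189 CPM.

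Inhibitors of cyclin-dependent kinases were higher in these cycling collagen cells than in cycling Matrigel cells. Of 7 measured, 4 were at least 2-fold higher and 0 lower (median 1.58). Cdkn1a, the p53 target p21, stood at 212 CPM (205 to 220) against 59.0 CPM (57.5 to 60.4), and it had a count in 97 of 112 high-score collagen cells. It was higher still in low-score collagen cells, at 397 CPM, where also 97 of 112 cells had a count. Cdkn2b (p15) stood at 50.5 against 5.68 CPM and Cdkn2a, the gene of p16 and p19ARF, at 15.5 against 0.359 CPM, in 30 of 112 and 32 of 533 cells. Of 18 p53 target genes 7 were at least 2-fold higher and 0 lower (0.68), with Ccng1 at 190 against 33.7 CPM and the apoptosis gene Bax at 453 against 150 CPM. Genes of G1 and its regulators had 8 of 17 lower (-0.96), with Cdk6 at 40.5 against 104.9 CPM and Cdk2 at 16.3 against 37.1 CPM. Of the immediate-early genes, which can respond to handling, 9 of 17 were lower and 0 higher (-1.02), and their part in the other differences was not tested.

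The high-score collagen cells had the fetal and regenerative genes of their culture. Of 15 measured genes of that list, 13 were at least 2-fold higher than in high-score Matrigel cells and 0 lower, with a median log2 ratio of 3.15. For Msln, the gene of mesothelin, the values were 138 CPM (132 to 144) and 0.455 CPM (0.337 to 0.602), and for Ly6a, the gene of Sca-1, 190 and 3.28 CPM. Anxa1, the gene of annexin A1, stood at 55.8 CPM (52.2 to 59.6) against 5.397 CPM. Against low-score collagen cells, the list had 5 of 15 genes at least 2-fold lower and 0 higher (median -0.65), with Anxa1 at 55.8 against 208 CPM, Anxa10 at 17.1 against 121 CPM and Lgals3, the gene of galectin-3, at 314 against 1145 CPM. Ly6a was at 190 against 286 CPM there, Msln at 138 against 218 CPM and Clu at 232 against 339 CPM, all within 2-fold. So the level lay between the other 2 groups, far above Matrigel. For 49 genes, including Ly6a, Clu, Lgals3 and Olfm4, the table has no low values, so their shares count only cells above a threshold. Any counts below it are missing from their levels and ratios too. The smallest kept values were 6 for Ly6a and Lgals3 and 10 for Clu.

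Shares of cells at equal depth showed how these levels were spread over cells. After thinning, Ly6a had a count in 44.2% of high-score collagen cells (34.0 to 54.8), 52.1% of middle, 40.0% of low-score and 4.31% of high-score Matrigel cells (2.72 to 6.45). Clu was found in 75.8%, 69.1%, 68.0% and 13.5% of the cells in that order, and Msln in 49.5%, 59.6%, 58.7% and 2.35%. Within collagen these intervals overlapped. Overlap does not show that the shares are equal, and differences between the 3 score groups were not tested. Without thinning Ly6a was counted in 47, 58, 46 and 24 cells and Msln in 62, 71, 74 and 28 cells. No cells known to lack these genes were set apart, so the part of free RNA in these shares was not tested. The Matrigel cells had a higher median depth before thinning.

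Most crypt stem cell genes measured stood lower in high-score collagen cells than in high-score Matrigel cells. Lgr5, the R-spondin receptor gene that marks the crypt base, stood at 34.7 CPM (31.8 to 37.7) in high-score collagen cells, at 34.9 CPM in low-score collagen cells and at 125 CPM (123 to 128) in high-score Matrigel cells. At equal depth it was found in 45.3% (35.0 to 55.8), 44.0% (32.5 to 55.9) and 93.2% (90.6 to 95.2) of the cells, and without thinning in 63 of 112, 43 of 112 and 510 of 533 cells. As a mean over cells of CPM in place of the summed counts, the log2 ratio of Lgr5 between high-score and low-score collagen cells was 0.68 and not -0.01. Axin2, a feedback gene of Wnt signalling, stood at 17.98, 11.4 and 150 CPM. Ascl2, a transcription factor gene of stem cells, stood at 5.02, 1.34 and 49.6 CPM. Of 18 measured stem cell genes, 11 were at least 2-fold lower than in high-score Matrigel cells, 1 was higher and 6 lay within 2-fold (median -1.46). At equal depth Prom1 of this list was found in 96.8% of high-score collagen and 95.7% of high-score Matrigel cells. Cd44 was found in 82.1% and 90.2% of them, and in 62.7% of low-score collagen cells. Against low-score collagen cells 3 of 15 were at least 2-fold higher and 0 lower (0.41), with Smoc2 at 94.9 against 43.1 CPM, and another of these 3 was Olfm4 with its 2 cells.

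**Figure D4:**
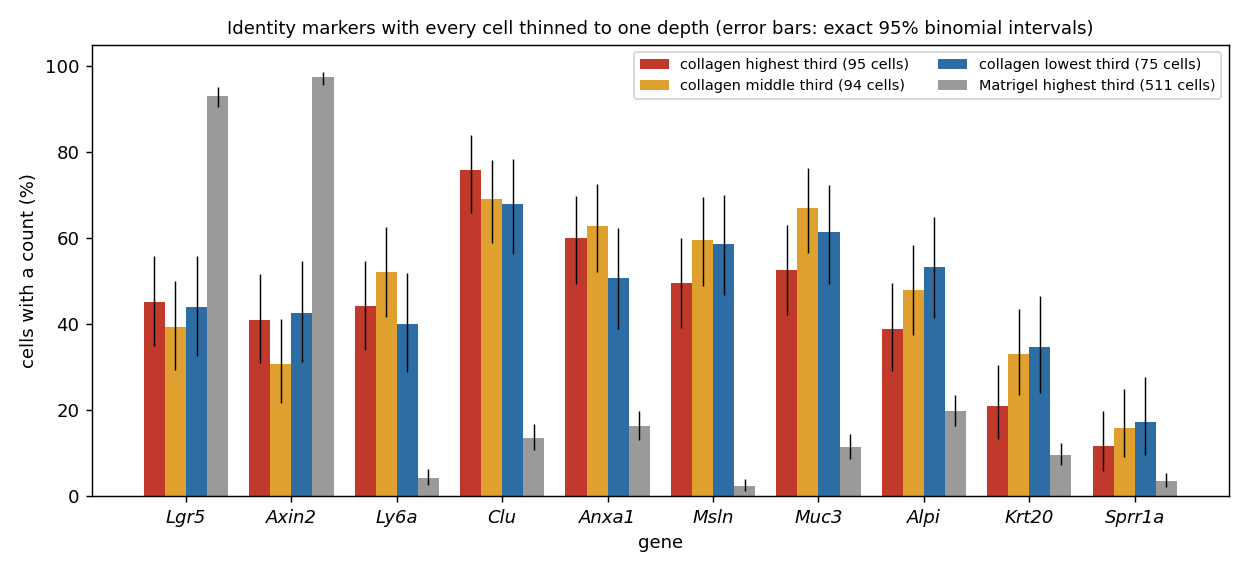
Percent of cells with a count of 10 identity genes after every cell was thinned to the same depth, for high-score (red), middle (orange) and low-score (blue) collagen cells and high-score Matrigel cells (grey), with exact 95% binomial intervals as error bars. For Lgr5 the red bar is at 45.3% and the grey one at 93.2%, for Ly6a at 44.2% and 4.31%, and within collagen the red and blue intervals overlap for each of the 10 genes.

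Differentiation genes were lower in high-score than in low-score collagen cells. Of 19 absorptive enterocyte genes 7 were at least 2-fold lower and 0 higher (median -0.68). Alpi, the brush border phosphatase gene, stood at 32.3 CPM (29.5 to 35.2) against 138 CPM (132 to 145), and Krt20, a keratin of differentiated cells, at 28.1 against 151 CPM. Of 11 keratin and squamous-type genes 5 were lower and 0 higher (-0.99). Sprr1a, a cornified envelope gene, stood at 21.03 CPM (18.8 to 23.4) against 375 CPM (364 to 385), with a count in 15 against 35 cells, but at equal depth in 11.6% (5.92 to 19.8) against 17.3% (9.57 to 27.8). Thinning left out 17 high-score and 37 low-score cells, the shallow ones. Fabp1, a fatty acid binding protein gene, stood at 1036 CPM in high-score and 847 CPM in low-score cells. Its log2 ratio of 0.29 turned to -0.68 with the score as a mean of logarithms and to -0.39 with cells thinned before scoring. Muc3, a membrane mucin gene, stood at 77.0 against 167 CPM. Compared with high-score Matrigel cells, Muc3 (2.55 CPM there), Krt20 (1.06 CPM) and Sprr1a (0.492 CPM) were all higher in high-score collagen cells.

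Some secretory genes were found in few collagen cells and others in many. Tff3 of the goblet list had a count in 89, 76 and 74 of 112 high-score, middle and low-score cells. Itln1 of the Paneth list had one in 82, 62 and 56. At equal depth the shares were 66.3%, 52.1% and 60.0% for Tff3 and 63.2%, 52.1% and 50.7% for Itln1. The secretory genes that reached 5 CPM were 7 of 11 goblet, 7 of 10 Paneth and 9 of 11 enteroendocrine genes. They mostly did so through the low-score cells, so the filter itself bears on their direction. Among these cells 8 low-score cells had counts of at least 2 of Chgb, Spink4, Agr2, Defa24, Defa17, Lyz1 and Fcgbp, against 0 high-score and 0 middle cells. Chgb of enteroendocrine cells and Spink4 of goblet cells were at 0 in all high-score cells and at 1909.6 and 884 CPM in low-score cells, carried by 4 cells each. All 7 genes are among the 49 without low values, and the smallest count kept is 122 for Chgb, 183 for Spink4 and 27 for Fcgbp, so a 0 here stands for fewer counts than that and does not show absence. With cells holding any of the 7 genes left out, the median log2 ratio of the goblet list was -0.39. Immune and tuft cell markers did not reach 5 CPM in either collagen group, and the fibroblast marker Vim was at 0 in high-score cells.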

How the data were processed

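The deposited expression table gives unscaled expected counts of 37172 genes in 2090 cells. Of its values above 0, 75.6% were whole (within 1e-06). A second deposited table gives whole hashtag counts of 200497 barcodes, all 2090 cells among them. The tools were STARsolo 2.7.10a, R 4.2.1 and cutadapt 4.1, with the GRCm39 build, per the submitters' processing notes. The sources used here do not say whether reads of 1 molecule were collapsed. The first 49 genes of the table lack low values (smallest kept values 3.33 to 183), and none of the 14 score genes is among them.

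Cell names give the culture per the labels (A952 collagen, A953 Matrigel). The 139 cells named as doublets were left out, and no doublet caller was run. A minimum of 500 genes and a maximum of 30% mitochondrial counts removed 16 Matrigel and 0 collagen cells. Within each group of cells the counts were summed, rounded to whole numbers for Poisson intervals, and scaled to CPM. The log2 ratio of CPM + 1 was taken for genes reaching 5 CPM in either group, which understates ratios of low genes. Thinning drew 77972 counts per cell, the percentile 10. Spearman's rho is over cells, with no p. Python 3.11.15, numpy 2.4.6, scipy 1.17.1 and pandas 2.3.3 were used, and the calculation was tested on simulated data.

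The high-score cells and the 39 gene lists, which share members, were chosen with earlier results of these data known. Of 617 listed symbols 607 were in the table, and the other 10 are not analysed here. Named genes are those of the score and Hmmr, up to 5 per list reaching 10 CPM with the largest absolute log2 ratio, the 12 with the largest ratio in each direction among genes reaching 50 CPM and 100 counts, and 14 genes named in every case, of which some are left out of the text. Promoters were chosen for the 4 marker genes, Hells and Uhrf1. Of the windows of the S and G2/M genes, 79 of 98 genes were matched by symbol. Alternatives were another form of the score, thinning before scoring, a hashtag share of at least 95%, other pseudocounts and filters, means over cells, other phase boundaries, and leaving out Pcna, genes without low values, or cells with secretory genes.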

Additional observations from a re-analysis of the deposited data

How the results depend on the processing

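Over 15 alternatives, of which 3 were chosen after seeing the data, 23 summary results were recomputed. Of 225 values, 197 stayed within the main interval or within 1.5 times. None of the list medians changed sign, while the shares and gene counts among the results cannot do so. Leaving Pcna out of the score took the median S share to 4.47% in collagen and 30.8% in Matrigel. That puts Matrigel on the G2/M side, from 64.9%, as did a score of mean logarithms (48.6%), though the latter value counts as within 1.5 times. In the highest 56 collagen cells 89.3% were high in both phases, 10.7% in G2/M only and 0% in S only. With boundaries from Matrigel cells, 8.93% of high-score collagen cells were high in both and 50.0% in G2/M only. Against low-score cells, the 915 genes higher and 354 lower became 331 and 137 with a pseudocount of 10 CPM and 456 and 172 among genes reaching 20 CPM, and 578 were lower with every gene counted. Against Matrigel, the 826 higher and 701 lower became 310 and 222 with 10 CPM, and 463 and 355 at 20 CPM. With 10 CPM the medians of S phase and G2/M genes against low-score cells were 1.20 and 1.68, that of the inhibitors against Matrigel 0.76 and that of the fetal list 2.30. The fetal median was 3.93 with 0.1 CPM and 3.87 at 20 CPM. The goblet median, which rests on a few cells, was -6.34 at a hashtag share of 95%, -6.26 with 0.1 CPM, -3.68 with 10 CPM, -6.90 at 20 CPM, -3.57 with every gene and -0.39 without secretory cells. The causes of these shifts were not tested beyond what each setting leaves out.

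No paired analysis was possible because each culture was 1 suspension and no test was run. For the same reason no replicate was left out, and no spread between cultures is known. Depth limits what a missing count shows, and Uhrf1 and Clspn had a count in 52 and 41 of 112 high-score cells. Of the named genes, 37 were recomputed. Those that changed sign all lay within 2-fold: Lgr5, Fabp1 and Ccnd1 against low-score cells, and Ccna2, Cdk1, Top2a and Birc5 against Matrigel.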

Other observations

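Cells named as doublets, which enter no comparison, held proliferative profiles too. Of the 137 that passed the quality filter, 71, or 51.8% (43.1 to 60.4), reached the collagen boundary of 581 CPM, at a median of 160322 counts per cell. Their S phase genes summed to a median of 1620 CPM and their G2/M genes to 1899 CPM. These cells were not chosen by score, so the whole cultures are the like comparison. Among all collagen cells the S and G2/M medians were 341 and 1308 CPM, and among all kept Matrigel cells 1885 and 2581 CPM. Both medians of the cells named as doublets lay between those of the cultures.

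Histone genes, most of which are transcribed in S phase, did not follow the other S phase genes against Matrigel. Of 17 measured, 7 were at least 2-fold higher in high-score collagen cells and 0 lower, beside 7.79% and 6.61% of all genes. Their median log2 ratio was 0.59, where the S phase list had a median of -1.02. H2bc4 stood at 177 against 66.1 CPM and H1f2 at 52.8 against 19.7 CPM. Within collagen, 11 of 16 measured histone genes were at least 2-fold higher in high-score than in low-score cells and 0 lower (median 1.31). Over all genes 8.74% were higher in that comparison. H2bc4 was not among the 11, at 184 CPM in low-score cells. H1f0, a linker histone gene of the list that is also expressed outside S phase, stood at 695 CPM in high-score collagen, 664 CPM in low-score collagen and 302 CPM in high-score Matrigel cells. Replication-dependent histone transcripts mostly lack a poly(A) tail and the library was made from polyadenylated RNA, and the part of this in the levels was not tested.

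The hypoxia-responsive and interferon-responsive lists held opposite examples. Of 24 glycolysis and hypoxia genes 7 were at least 2-fold higher in high-score collagen than in high-score Matrigel cells and 0 lower (median 0.63), with Ankrd37 at 148 against 33.4 CPM and the oxygen sensor gene Egln3 at 115 against 29.7 CPM. In this comparison 7.79% of all genes were higher and 6.61% lower by 2-fold or more. Of 8 measured interferon-responsive and MHC genes 1 was at least 2-fold higher and 3 lower (median -0.18), so that list did not move together. Among the lower ones Ifitm3, an interferon-induced membrane protein gene, stood at 59.4 CPM in high-score collagen and 473 CPM in high-score Matrigel cells. It was at 15.5 CPM in low-score collagen cells.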
